A study of Mus musculus with 9 samples.

Results

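The genes described here are 10 cytokines through which T cells act on other cells. They are Il10, Il4, Il5, Il13, Il6, Tnf, Csf2, Ifng, Il17a and Lta, taken by gene name from a table of 49510 genes. Each name matched 1 row, and 9 of the 10 had enough reads to be tested among 16609 tested genes. RNA was sequenced from regulatory T cells (Tregs) of Foxp3-GFP mice, in which a green fluorescent protein reports Foxp3, the transcription factor of this lineage. All mice were 8 weeks old and all had ischemia/reperfusion (I/R) injury of the heart, a block and return of blood flow, 3 days before the cells were taken. Tregs of the spleen, of the heart-draining mediastinal lymph node (MLN) and of the injured heart were purified by a magnetic and then a fluorescence sort, with 3 libraries per organ. No uninjured heart and no other T cell enters these comparisons, so they compare organs of injured mice. Whether the 3 libraries of each organ are separate mice or pools is not stated in the labels, and the p-values therefore measure only the spread between these samples, which may be technical.

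T helper cells are commonly grouped by the cytokines they release. Interferon gamma (Ifng) and lymphotoxin alpha (Lta) are typical of type 1 cells, interleukins 4, 5 and 13 of type 2 cells, and interleukin 17A of type 17 cells. Interleukin 10 restrains inflammation and is one of the molecules through which Tregs act. Tnf, Il6 and Csf2 (GM-CSF) encode inflammatory cytokines that macrophages, mast cells or stromal cells also make. Cytokine genes are typically silent in resting T cells and are switched on after stimulation of the T cell receptor through the factors NFAT, AP-1 and NF-kB.

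Totals ranged from 156194012 to 267520538 counts per library, so that 3 counts, the limit that a count of 0 allows, correspond to 0.0104 to 0.0193 CPM (counts per 1000000 counts of a library's scaled total). The median biological coefficient of variation between libraries of an organ was 102%, far beyond counting error. Spleen library 3, MLN library 3 and heart library 2 stood apart within their organs, with scaling factors of 1.24, 1.17 and 1.11. Their shares of counts on B2m, a chain of class I molecules, were 1.20%, 1.55% and 1.25%, against at least 2.38% elsewhere. Foxp3 had 31.2, 32.6 and 187.3 CPM in spleen libraries 1, 2 and 3, 42.4, 41.8 and 46.3 CPM in the MLN, and 8.77, 38.0 and 0.240 CPM in the heart. Foxp3 was thus near 0 in heart library 3, although its label names Tregs, and that library is called the library labelled heart Treg 3 where a result rests on it. In heart library 1 Foxp3 also lay below every lymphoid library. Other Treg genes were present in all 3 heart libraries, some of them at lower levels than in the lymphoid organs. In heart libraries 1, 2 and 3, Ikzf2 had 293.5, 229.3 and 350.1 CPM, Ctla4 363.1, 552.4 and 314.7 CPM, and Il2ra 266.8, 169.0 and 160.5 CPM. Ikzf2 had 1551, 1710 and 1077 CPM in spleen libraries 1, 2 and 3, and 1998, 2093 and 936 CPM in the MLN. Its heart level was lower than in either organ at an adjusted p below 0.05 by edgeR. Izumo1r, at 23.2, 49.0 and 17.6 CPM in the heart, lay below every lymphoid library. Against the MLN its adjusted p was also below 0.05 by edgeR.

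The summed counts of 14 Treg and pan-T genes made up 0.699% to 0.814% of counts in the spleen, 0.698% to 0.910% in the MLN and 0.265% to 0.367% in the heart, and none of the 14 was at 0 in any library. In the heart, 0 of the 14 had a positive log2 difference against the spleen, and 2 against the MLN. Macrophage and monocyte markers, 16 genes, made up 0.116% to 0.335% in the spleen, 0.0333% to 0.0854% in the MLN and 0.768% to 1.07% in the heart. Fibroblast markers, 10 genes, made up 0.305% to 1.67% in the heart and at most 0.00372% in the lymphoid organs. Neutrophil markers, 10 genes, made up 0.0597% to 0.323% in the heart and at most 0.00410% elsewhere. Mast cell and basophil markers, 12 genes, made up 0.625% and 0.608% in heart libraries 1 and 2 but 0.00412% in the library labelled heart Treg 3, where 8 of the 12 were at 0, and at most 0.00661% elsewhere. Markers of cells that also make some of these cytokines were thus present in the heart libraries, and the part of such cells in the results was not tested. In such bulk samples, fewer cells of a type and less RNA per cell cannot be told apart.

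**Figure D1:**
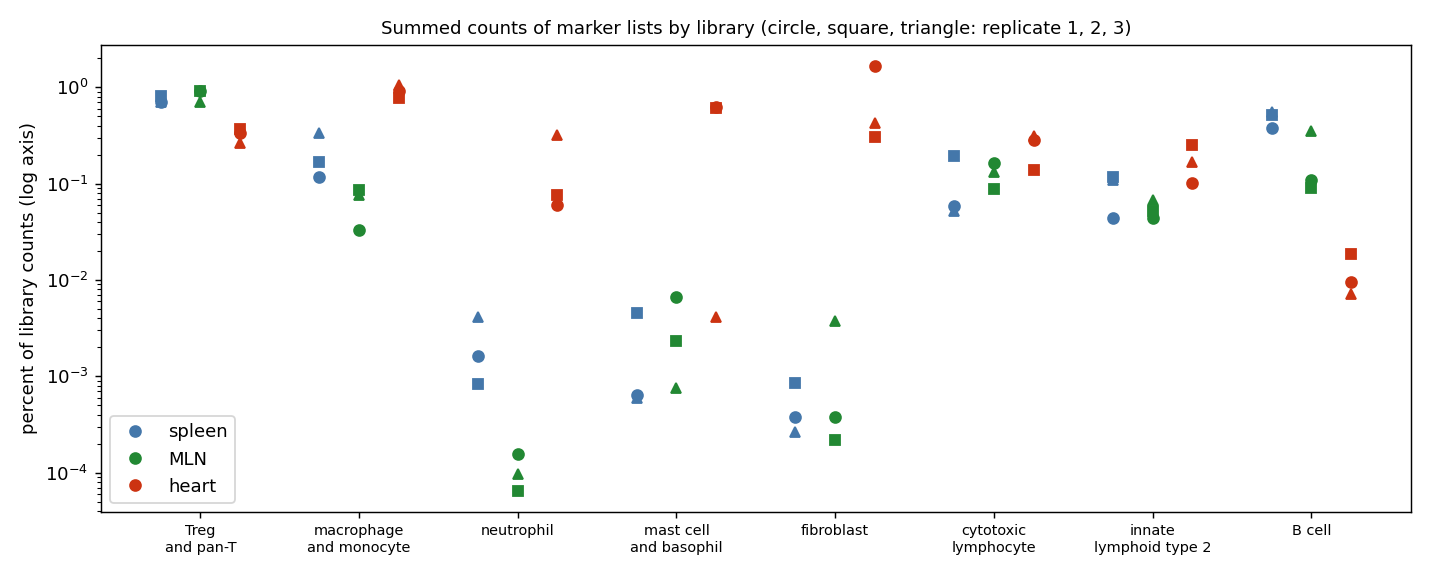
Percent of each library's counts (log axis) on 8 lists of marker genes, by organ (colour) and replicate (symbol). Treg and pan-T genes are lower in the 3 heart libraries (0.265% to 0.367%) than in the 6 others, macrophage, neutrophil and fibroblast markers are higher, and mast cell markers are high in heart libraries 1 and 2 only.

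The promoters of 4 members are shown because they represent the patterns found: Il6 and Il5, almost without reads outside the heart; Tnf, present in all 9 libraries and higher in the heart; and Lta, the neighbour of Tnf, lower in the heart than in the MLN. Each is the 250 bases before the RefSeq start in GRCm38.p6, on the strand of the gene, 5′ to 3′. Capitals mark the NFAT core GGAAA, the AP-1 site TGANTCA, the NF-kB core GGGNNTTTC and the TATA box TATAAA, searched on both strands, so that TTTCC is the NFAT core read from the opposite strand. The windows are Il6 chr5:30012864-30013113 (plus strand), Il5 chr11:53720544-53720793 (plus), Tnf chr17:35202008-35202257 (minus) and Lta chr17:35205352-35205601 (minus).
Il6: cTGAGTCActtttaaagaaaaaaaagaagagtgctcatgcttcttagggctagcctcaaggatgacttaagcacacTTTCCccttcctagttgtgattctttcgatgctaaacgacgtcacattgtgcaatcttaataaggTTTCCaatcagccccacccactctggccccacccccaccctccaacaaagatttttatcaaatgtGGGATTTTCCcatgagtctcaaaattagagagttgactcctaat
Il5: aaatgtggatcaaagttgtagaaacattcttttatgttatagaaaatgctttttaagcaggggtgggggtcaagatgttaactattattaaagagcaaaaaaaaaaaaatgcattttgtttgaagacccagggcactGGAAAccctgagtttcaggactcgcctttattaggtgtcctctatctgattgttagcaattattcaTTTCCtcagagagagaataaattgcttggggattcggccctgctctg
Tnf: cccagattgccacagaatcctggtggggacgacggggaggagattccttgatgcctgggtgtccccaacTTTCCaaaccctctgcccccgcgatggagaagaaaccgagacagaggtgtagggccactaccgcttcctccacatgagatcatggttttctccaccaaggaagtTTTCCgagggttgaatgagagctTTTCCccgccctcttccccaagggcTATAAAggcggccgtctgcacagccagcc
Lta: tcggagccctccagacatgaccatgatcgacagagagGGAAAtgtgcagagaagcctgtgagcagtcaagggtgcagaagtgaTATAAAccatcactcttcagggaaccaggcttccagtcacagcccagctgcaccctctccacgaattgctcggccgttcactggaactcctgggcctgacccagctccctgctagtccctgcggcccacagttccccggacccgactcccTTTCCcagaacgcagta

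Of the 10 members, 9 (all but Il10) matched the RefSeq promoter table. Of these, 8 (all but Csf2) have an entry whose start lies within 10 bases of the GENCODE vM21 gene start. The NFAT core occurred in 7 of these 8 promoters, and in 55.6% of 32851 mouse promoters of the same length. That background takes all entries, without the condition on the start, so the 2 sets were not chosen alike. A further Il4 entry, 1331 bases from the GENCODE start, was left out by the condition and held none of the motifs. The Csf2 entry, 232 bases from the GENCODE start, was also left out. It held 2 NFAT cores and none of the other motifs. The TATA box occurred in 5 of 8 and in 12.4% of all promoters. The AP-1 site occurred in 2 of 8 (Il6 and Il17a) and in 6.75%, and the NF-kB core in 2 of 8 (Il6 and Il4) and in 3.72%. In the Il6 promoter, the NF-kB core at position -44 from the start overlaps the NFAT core at -39, and both lie within the run GGGATTTTCC. The Tnf promoter has a TATA box at -29 and NFAT cores at -181, -77 and -54. The same TATA letters in the Lta window start at -167, and the Il5 window has none. These are matches of letters, and binding was not measured.

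Most of the cytokines had their highest mean level in the heart, and Lta had its lowest there. No member passed the threshold of an adjusted p of 0.05 in edgeR's quasi-likelihood test with Benjamini-Hochberg adjustment over all tested genes. That count, 0 of 9, stands against 0.789% of tested genes (131) called between heart and spleen, 1.38% (230) between heart and MLN, and 0% between MLN and spleen. At an unadjusted p below 0.05 the counts were 6 of 9 for heart against spleen (background 13.6%), 4 of 9 for heart against MLN (15.5%) and 2 of 9 for MLN against spleen (5.75%). DESeq2 called 4 members between heart and spleen (Il5, Il6, Tnf and Csf2), 4 between heart and MLN (Il10, Il5, Il6 and Tnf) and 2 between MLN and spleen (Il6 and Csf2). The limma-voom test called 3 (Il5, Tnf and Csf2), 3 (Il10, Il5 and Tnf) and 0 in the same order. These 2 tests also called far more genes than edgeR between the heart and the other organs. Of all 16609 tested genes, DESeq2 called 1862, 2204 and 782 in that order. The limma-voom test called 1141, 1332 and 3.

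The filter on low counts bears on these counts and on those that follow, since a gene needed 0.0451 CPM (of unscaled totals) in 3 libraries to be tested. Il10, Tnf, Ifng and Lta reached this in all 9 libraries. The other 5 tested members (Il5, Il6, Csf2, Il4 and Il17a) reached it in at most 2 lymphoid libraries and were tested only because of their heart libraries, so their place in the counts follows in large part from the filter and is no support for a difference.

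All 3 heart libraries lay above all 3 spleen libraries for 6 members, Il10, Il5, Il6, Tnf, Csf2 and Ifng, where 12.4% of tested genes do so. No member lay wholly below the spleen, where 6.9% of tested genes do. All 3 heart libraries lay above all 3 MLN libraries for 5 members, the same without Ifng, against 14.9% of tested genes, and for Lta they lay below, against 11.2%. No member separated the MLN from the spleen, where 4.52% of tested genes lay wholly higher and 4.56% wholly lower in the MLN. Of the 6 members above the spleen, only Il10, Tnf and Ifng would have been tested without the heart libraries, and of the 5 above the MLN only Il10 and Tnf.

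**Figure D2:**
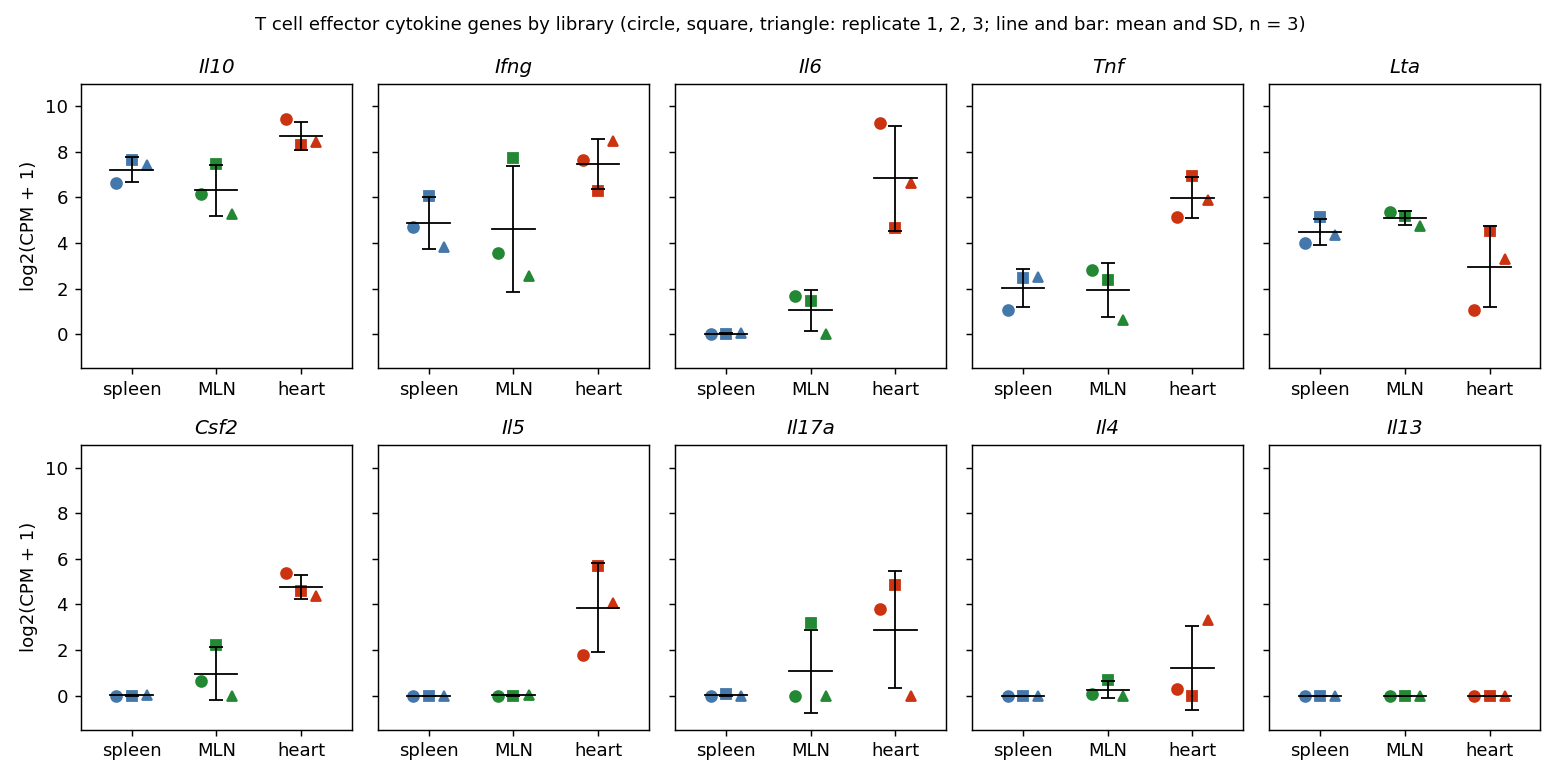
Level of each of the 10 cytokine genes as log2(CPM + 1) in the 9 libraries, by organ (colour) and replicate (symbol), with mean and SD as line and bar (n = 3). The heart libraries lie above all others for Il10, Il6, Tnf, Csf2 and Il5, and the Lta heart libraries lie below the MLN.

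Il10, which encodes the inhibitory cytokine most tied to Treg function among the 10, was present in every library. Its levels were 97.1, 196.8 and 170.6 CPM in spleen libraries 1, 2 and 3, 70.1, 178.1 and 38.0 CPM in the MLN, and 688.4, 315.4 and 340.9 CPM in the heart. Each heart library lay above each library of the other organs, and heart library 1 was the highest. The heart mean of 448.2 ± 208.4 CPM (SD, n = 3) was 2.89 times the spleen mean of 154.9 ± 51.7 CPM and 4.70 times the MLN mean of 95.4 ± 73.4 CPM. The log2 difference from the spleen was 1.53 (SE 0.616, adjusted p = 0.322, edgeR), and from the MLN 2.23 (SE 0.630, adjusted p = 0.120, edgeR). Without the 3 libraries that stood apart, these were 1.81 and 2.07. The gene (ENSMUSG00000016529) lies on chromosome 1 at 131019845 to 131024974, plus strand, in mm10.

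Among the 9059 other genes with at least 10 CPM in an organ, those whose log2(CPM + 1) followed Il10 most closely over the 9 libraries were Clec12a (r = 0.96), Ms4a7 (0.95) and Tppp3 (0.95). Clec12a is an inhibitory receptor of myeloid cells, and Ms4a7 is one of the macrophage markers summed above. Such correlations describe 9 libraries that share organ and depth, and carry no test.

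Ifng, the main activator of macrophages made by type 1 cells, varied widely within the MLN. It lies on chromosome 10 at 118441046 to 118445892, plus strand. It had 25.3, 66.9 and 13.1 CPM in spleen libraries 1, 2 and 3, 10.7, 213.1 and 4.87 CPM in the MLN, and 201.5, 77.0 and 353.0 CPM in the heart. The heart libraries lay above the spleen libraries, but MLN library 2 lay above 2 of the 3 heart libraries. Within the MLN the highest value was 43.7 times the lowest. The log2 difference was 2.58 for heart against spleen (SE 1.37, adjusted p = 0.484, edgeR) and 1.47 for heart against MLN (SE 1.32, adjusted p = 0.730, edgeR). Leaving out MLN library 2 moved the second value to 4.76, with an adjusted p of 0.136 by edgeR. The library labelled heart Treg 3 held the highest level, and without it the difference from the spleen was 1.99. Cytotoxic lymphocyte markers, from cells that also make interferon gamma, made up 0.285%, 0.140% and 0.316% of counts in heart libraries 1, 2 and 3, 0.0525% to 0.195% in the spleen, and 0.162%, 0.0886% and 0.132% in MLN libraries 1, 2 and 3. Their order over the heart libraries was that of Ifng, whereas MLN library 2, with the most Ifng of the MLN, had the lowest share there. Their part in the result was not tested. Fbxl5 (r = 0.96), Ccl1 (0.93) and S100a1 (0.92) followed Ifng most closely.

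Il17a, a cytokine that recruits neutrophils (chromosome 1, 20730905 to 20734496, plus strand), was found in 4 of 9 libraries. It had 13.1 and 27.9 CPM in heart libraries 1 and 2, none in the library labelled heart Treg 3, 7.96 CPM in MLN library 2, and 0.0331 CPM (7 counts) in spleen library 2. The other libraries had no count, and the organs overlapped. The log2 difference was 10.20 for heart against spleen (SE 4.68, adjusted p = 0.392, edgeR), a fitted value that rests on those 7 spleen counts, and 2.36 for heart against MLN (SE 3.31, adjusted p = 0.858, edgeR). The second value became 14.57 without MLN library 2, the only MLN library with Il17a, and 0.73 without the 3 libraries that stood apart. Gfra1 (r = 0.98), Rarres1 (0.94) and Depdc7 (0.94) followed Il17a most closely.

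The type 2 cytokines share a cluster on chromosome 11 with Csf2. Il4 (53602982 to 53618669, minus strand) lies 12655 bases from Il13 (53631324 to 53634702, minus), which lies 86092 bases from Il5 (53720794 to 53725106, plus), and Csf2 (54247271 to 54249667, minus) lies 522165 bases beyond Il5. The 4 genes did not share 1 pattern over the libraries.

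Il5, the growth factor of eosinophils, had 2.47, 51.3 and 15.8 CPM in heart libraries 1, 2 and 3. It had no count in any spleen library, and 6 counts (0.0232 CPM) in MLN library 3 were its only counts in the lymphoid organs. The heart libraries lay above all others and differed among themselves by 20.7 times. Against the floor of 3 counts per library, the heart mean of 23.2 ± 25.2 CPM was at least 1588-fold higher than the spleen level (adjusted p = 0.0774, edgeR). This bound is for the mean, which heart library 2 carried. Heart libraries 1 and 3 lay below that mean. The log2 difference from the MLN was 11.41 (SE 2.59, adjusted p = 0.0954, edgeR) and rests on those 6 counts. With spleen library 3, MLN library 3 and heart library 2 left out, the adjusted p values by edgeR were 0.213 and 0.206. Ppp1r14c (r = 0.997), Xkr4 (0.990) and Igfbp3 (0.990) followed Il5 most closely. Its exons overlap those of the antisense gene Gm12214, which had no count in any library.

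Il13, which acts on epithelium and macrophages, had no count in any of the 9 libraries and was not tested. Its limit is 3 counts per library. Il4, which drives type 2 differentiation, had 0.219, 0 and 9.06 CPM in heart libraries 1, 2 and 3, and 0.0624, 0.617 and 0 CPM in the MLN. The library labelled heart Treg 3 held 2004 of its counts, heart library 1 held 39, and MLN libraries 1 and 2 held 13 and 137. No spleen library had a count, so the heart mean of 3.09 ± 5.17 CPM was at least 212-fold higher than the spleen floor (adjusted p = 0.313, edgeR). Without the library labelled heart Treg 3 the heart mean was 0.109 CPM, at least 7.49-fold higher than that floor. Against the MLN the log2 difference was 3.77 (SE 3.28, adjusted p = 0.724, edgeR), and it turned to -1.06 without the library labelled heart Treg 3.

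Type 2 innate lymphoid cells also make interleukins 5 and 13. Their 11 markers made up 0.102%, 0.249% and 0.166% of counts in heart libraries 1, 2 and 3, in the same order as Il5, and 0.0436% to 0.116% and 0.0439% to 0.0670% in the spleen and MLN. These markers include Gata3, which also drives type 2 T cells, at 13.4, 152.3 and 34.0 CPM in the heart libraries. Gata3 also had 187.1 CPM in spleen library 3. Il17rb had 0, 4.66 and 0 CPM in the heart. Not all markers shared the order of Il5. In heart libraries 1, 2 and 3, Il7r had 203.4, 198.2 and 343.3 CPM, Areg 104.1, 132.5 and 230.4 CPM, and Arg1 392.2, 421.0 and 698.5 CPM. Treg genes of tissues, such as Il1rl1, Areg and Rora, are on the same list. The order of Il5 was also not particular to this list. In heart libraries 1, 2 and 3, 10 dendritic cell markers made up 0.0773%, 0.277% and 0.107% of counts. The 28 transcription factors described below made up 0.277%, 0.705% and 0.291%. Macrophage and fibroblast markers did not share that order. The part of type 2 innate lymphoid cells in the Il5 level was not tested.

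Csf2, which supports the growth and activation of myeloid cells, was the most even member among the heart libraries. It had 40.8, 22.9 and 19.8 CPM there, against 0.557, 3.71 and 0 CPM in MLN libraries 1, 2 and 3. In the spleen, 6 counts in library 3 (0.0207 CPM) were its only ones. The heart libraries lay above all others, with a highest value 2.06 times the lowest. The mean of 27.8 ± 11.4 CPM in the heart was 19.6 times the MLN mean of 1.42 ± 2.00 CPM, with a log2 difference of 4.29 (SE 2.20, adjusted p = 0.406, edgeR). Without MLN library 2, which carried that mean, the difference was 6.64. The difference from the spleen was 11.75 (SE 3.03, adjusted p = 0.111, edgeR) and rests on those 6 counts. In a fit of heart and spleen alone its adjusted p was 0.0432 by edgeR. It was 0.140 without the 3 libraries that stood apart, 0.343 with the replicate number as a block, and 0.0565 to 0.299 without 1 library, all by edgeR. Csf2 was tested only because of its heart libraries, so these values are no support for a difference. An antisense gene, Gm12223, overlaps exons of Csf2 and had a mean of 0.171 CPM in the heart. Oaf (r = 0.99), Folr2 (0.99) and Efemp2 (0.99) followed Csf2 most closely, and Folr2 is a receptor of resident macrophages.

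Il6, an inflammatory cytokine of stromal and myeloid cells that also acts on T helper differentiation, had almost all of its counts in the heart. It lies on chromosome 5 at 30013114 to 30019981, plus strand. It had 611.5, 24.1 and 97.8 CPM in heart libraries 1, 2 and 3, 2.23, 1.70 and 0 CPM in the MLN, and 6 counts in spleen library 3 (0.0207 CPM) as the only ones of the spleen. The lowest heart library lay above the highest MLN library, and heart library 1 was 25.3 times heart library 2. The heart mean was 244.5 ± 320.0 CPM and the MLN mean 1.31 ± 1.17 CPM, with a log2 difference of 7.54 (SE 2.34, adjusted p = 0.150, edgeR). The difference from the spleen was 14.80 (SE 3.08, adjusted p = 0.0704, edgeR) and rests on those 6 counts. This adjusted p was 0.0377 without MLN library 3 and 0.0385 in a fit of heart and spleen alone, and 0.125 without the 3 libraries that stood apart, all by edgeR. Il6 was tested only because of its heart libraries, so these values are no support for a difference.

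The heart library with the most Il6 also had the most fibroblast marker counts. These markers made up 1.67%, 0.305% and 0.429% of counts in heart libraries 1, 2 and 3, the same order as Il6. Dcn, the most abundant of them, had 16297, 2171 and 3797 CPM there, while Col3a1 had 702.5, 103.1 and 156.7 CPM. In the 6 lymphoid libraries Dcn had at most 4.67 CPM. Timp1 (r = 0.99), an inhibitor of matrix proteases, Pls3 (0.98) and Ifi205 (0.98) followed Il6 most closely. Endothelial markers, 10 genes, made up 0.147%, 0.0645% and 0.0668% of counts in heart libraries 1, 2 and 3, also in the order of Il6. They made up at most 0.0270% in the lymphoid organs. The order is thus not particular to fibroblast markers. The part of fibroblasts or endothelial cells in the Il6 level was not tested.

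Tnf, a cytokine that activates NF-kB in its target cells, was present in all 9 libraries. It had 1.06, 4.59 and 4.74 CPM in spleen libraries 1, 2 and 3, 6.01, 4.25 and 0.529 CPM in the MLN, and 34.8, 122.8 and 58.0 CPM in the heart. The lowest heart library was above the highest of the other organs, and spleen and MLN overlapped. The heart mean of 71.9 ± 45.6 CPM was 20.7 times the spleen mean of 3.47 ± 2.08 CPM, with a log2 difference of 4.37 (SE 1.07, adjusted p = 0.101, edgeR). Against the MLN mean of 3.60 ± 2.80 CPM the difference was 4.32 (SE 1.06, adjusted p = 0.0902, edgeR). Without the 3 libraries that stood apart, these differences were 4.05 and 3.20. Rab20 (r = 0.97), Lmnb1 (0.97) and Hdc (0.97) followed Tnf most closely, and Hdc, which makes histamine, is one of the mast cell markers above. Macrophages and mast cells also make Tnf. Macrophage markers were higher in all 3 heart libraries and mast cell markers in 2 of them. Neither list ranked the heart libraries as Tnf did. Macrophage and monocyte markers made up 0.919%, 0.768% and 1.07% of counts in heart libraries 1, 2 and 3, lowest where Tnf was highest. Mast cell and basophil markers made up 0.625%, 0.608% and 0.00412%. The library labelled heart Treg 3 had 58.0 CPM of Tnf and no count of Cpa3, the mast cell carboxypeptidase. Cpa3 had 6444 and 3553 CPM in heart libraries 1 and 2. In the library labelled heart Treg 3, 8 of the 12 mast cell and basophil markers were at 0, while Hdc had 37.0, Cma1 8.47 and Kit 4.17 CPM. The part of macrophages and mast cells in the Tnf level was not tested.

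Lta forms a secreted trimer and, with lymphotoxin beta, the membrane complex that organizes lymphoid tissue. It lies 1158 bases from Tnf on chromosome 17 (35203165 to 35205351, against 35199381 to 35202007 for Tnf, both on the minus strand). Its mean was lowest in the heart, where that of Tnf was highest. Within the heart and within the MLN, both genes ranked the libraries in the same order, but not within the spleen. Lta had 14.9, 33.8 and 19.1 CPM in spleen libraries 1, 2 and 3, 39.8, 35.9 and 25.9 CPM in the MLN, and 1.09, 22.4 and 8.78 CPM in the heart. The heart libraries lay below all MLN libraries, but heart library 2 lay above 2 spleen libraries. B cells also make lymphotoxins, and their 10 markers made up 0.382% to 0.552% of counts in the spleen, 0.0896% to 0.354% in the MLN and 0.00718% to 0.0188% in the heart, where 3 to 5 of them were at 0. The part of B cells in the Lta level was not tested. The heart mean of 10.8 ± 10.8 CPM was 3.15 times lower than the MLN mean of 33.8 ± 7.19 CPM, with a log2 difference of -1.65 (SE 0.919, adjusted p = 0.458, edgeR). The spleen mean was 22.6 ± 9.94 CPM, and the difference of the heart from it was -1.07 (SE 0.906, adjusted p = 0.793, edgeR). Without the 3 libraries that stood apart, the differences were -2.91 from the MLN and -2.29 from the spleen. Mpdu1 (r = 0.98), Pithd1 (0.96) and Hmces (0.96) followed Lta most closely.

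Near Tnf, the genes Ltb and Lst1 are described because Ltb is among the most abundant of the other T cell cytokines and Lst1 was called. Ltb, which encodes lymphotoxin beta, is also made by B cells and lies 3061 bases from Tnf, had 217.2, 220.6 and 224.2 CPM in spleen libraries 1, 2 and 3, 159.3, 190.8 and 328.0 CPM in the MLN, and 3.67, 47.4 and 51.8 CPM in the heart. Its heart libraries lay below all others, with log2 differences of -2.69 from the spleen (SE 0.824, adjusted p = 0.163, edgeR) and -2.72 from the MLN (SE 0.825, adjusted p = 0.142, edgeR). Lst1, a gene of myeloid cells 10942 bases from Tnf, was the only gene within 100 kb of a member that was called. It had 425.8, 150.4 and 405.4 CPM in the heart against 23.0, 37.4 and 44.5 CPM in MLN libraries 1, 2 and 3, and rose by 3.23 on the log2 scale (SE 0.495, adjusted p = 0.0300, edgeR). This call was lost without MLN library 1, 2 or 3 or heart library 1 or 3 (adjusted p = 0.0776 to 0.112, edgeR), and with the 3 libraries that stood apart left out (adjusted p = 0.0910, edgeR). Against the spleen, with 93.5, 77.0 and 67.0 CPM, its difference was 2.05 (SE 0.472, adjusted p = 0.0861, edgeR).

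**Figure D3:**
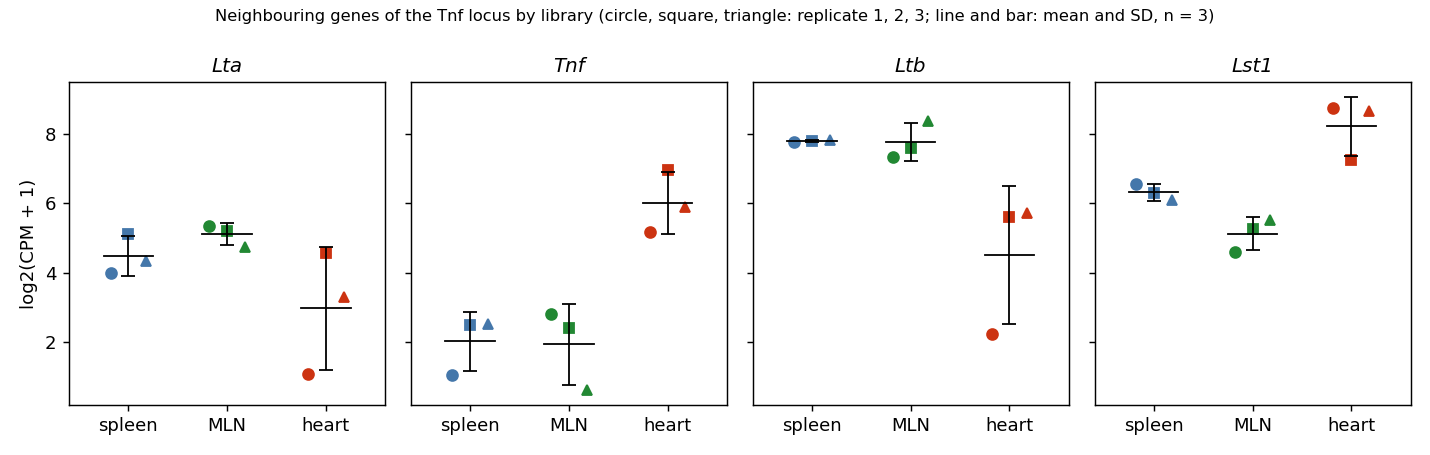
Level of Lta, Tnf, Ltb and Lst1, neighbours on chromosome 17, as log2(CPM + 1) in the 9 libraries, by organ (colour) and replicate (symbol), with mean and SD (n = 3). Tnf and Lst1 are higher in the heart than in the MLN while Ltb and Lta are lower, and heart library 1 has the lowest Lta (1.09 CPM) and Ltb (3.67 CPM).

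To compare genes, levels were divided by exon length. In the heart, the mean CPM per kb was 342.1 for Il10, 162.5 for Ifng, 100.7 for Il6, 43.9 for Tnf, 34.8 for Csf2, 15.1 for Il5, 11.7 for Il17a, 7.78 for Lta and 2.52 for Il4. Each gene in this order overlapped the next over the 3 libraries. In the spleen the order of mean CPM per kb was Il10 (118.2), Ifng (27.1), Lta (16.3) and Tnf (2.11), and the other members had at most a few counts. There, Il10 lay above Ifng and Lta above Tnf in CPM per kb without overlap, while Ifng and Lta overlapped. In the MLN the order of mean CPM per kb was Il10 (72.8), Ifng (58.8), Lta (24.5), Il17a (2.27), Tnf (2.19), Csf2 (1.78), Il6 (0.540) and Il4 (0.185). In the MLN, Ifng and Lta overlapped, and so did Il10 and Ifng. Ifng stood above Lta there through library 2 alone, with 8.26, 164.5 and 3.76 CPM per kb in libraries 1, 2 and 3 against 28.8, 26.0 and 18.7 for Lta. Without MLN library 2 the mean CPM per kb was 6.01 for Ifng, 23.7 for Lta, 2.00 for Tnf and 0 for Il17a.

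No heart library was highest for all members. Heart library 1 was the highest of the heart for 3 members (Il10, Il6 and Csf2), heart library 2 for 4 (Il5, Tnf, Il17a and Lta), and the library labelled heart Treg 3 for 2 (Il4 and Ifng). MLN library 2 was the highest MLN library for 5 members (Il10, Il4, Csf2, Ifng and Il17a). For the 8 members with at least 10 CPM in the heart, the median SD of log2(CPM + 1) over the heart libraries was 1.43, against 0.78 for the 7871 genes with that level. The same medians in the MLN were 1.11 for 3 members and 0.47 for 6975 genes, and in the spleen 0.58 for 3 members and 0.73 for 7390 genes.

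Between the lymphoid organs the members differed little relative to their spread. In the MLN against the spleen, the log2 difference was -0.70 for Il10, 0.05 for Tnf, 0.58 for Lta and 1.12 for Ifng, with overlapping libraries and an adjusted p above 0.8 for each member by edgeR. The difference for Ifng turned to -2.17 without MLN library 2. Il6 and Csf2 had the lowest unadjusted p values (0.0159 and 0.0188, edgeR), with log2 differences of 7.26 and 7.46 that rest on 6 spleen counts of each gene.

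**Figure D4:**
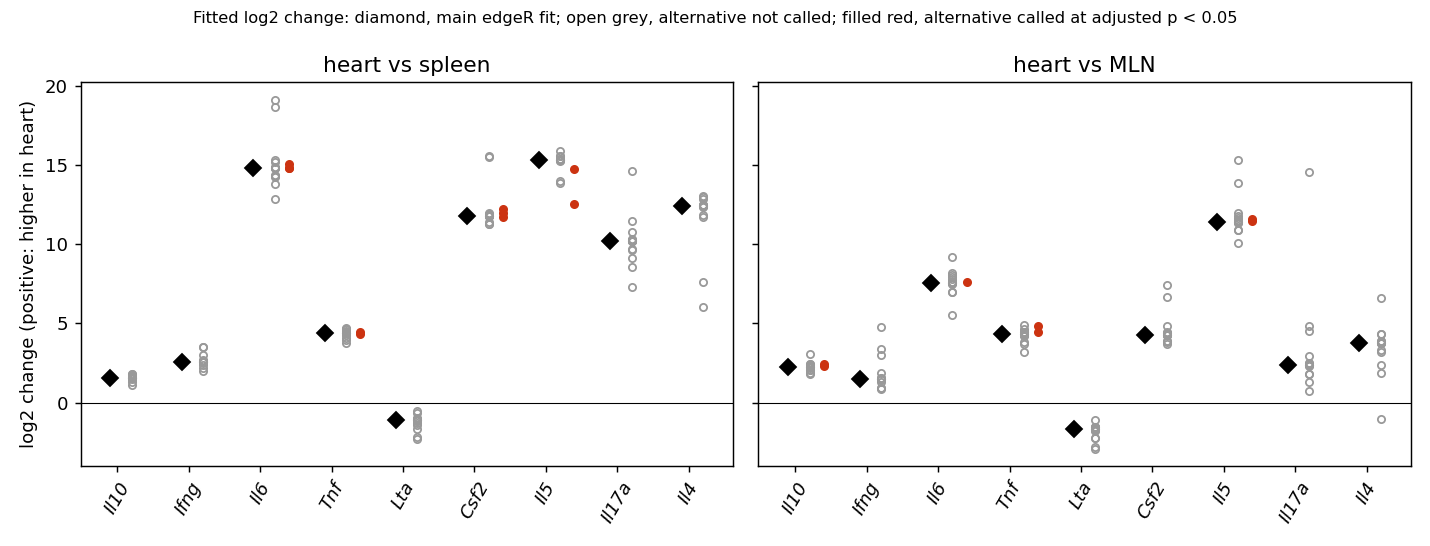
Fitted log2 change of the 9 tested members in the heart against the spleen (left) and the MLN (right): diamonds show the edgeR fit of all 9 libraries, open circles alternatives that did not call the gene and filled circles alternatives that did. Every heart against spleen value keeps its sign, Lta is below 0 in both panels, and Il4 against the MLN turns to -1.06 in 1 alternative.

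The wider cytokine machinery was read from 4 gene lists, chosen with earlier results of these data known. Of the receptors of the members, 18 of 19 were tested and none was called in any comparison, with a median log2 difference of 0.52 for heart against spleen and 1.41 for heart against MLN. The medians of all tested genes were 0.02 and 0.12. Ifngr1, a chain of the interferon gamma receptor, had the highest level of the list, at 370.8 ± 126.5 CPM in the spleen, 287.2 ± 117.0 CPM in the MLN and 586.1 ± 198.3 CPM in the heart (adjusted p = 0.672 and 0.323 for the heart against each, edgeR). Il2rg, the chain shared by the receptors of interleukins 2 and 4, had 431.7 ± 107.4, 381.3 ± 137.3 and 279.8 ± 135.8 CPM in the same order. Il13ra1, a receptor of interleukin 13, had means of 55.7, 9.79 and 150.3 CPM, and Tnfrsf1b, the Tnf receptor typical of Tregs, had 117.3, 62.9 and 156.7 CPM. Il5ra, chosen after its values were seen, had no count in any heart library, 3.97, 13.5 and 1.49 CPM in spleen libraries 1, 2 and 3, and 0, 5.66 and 8.26 CPM in the MLN, which overlapped the heart.

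Of 20 other T cell cytokines, 17 were tested and none was called, with medians of -0.15 for heart against spleen and 1.04 for heart against MLN. The most abundant were Mif, Ltb, Tnfsf8 and Areg. Areg, a growth factor tied to tissue repair by Tregs, had 138.3 ± 102.0 CPM in the spleen, 55.1 ± 41.6 CPM in the MLN and 155.7 ± 66.3 CPM in the heart, where the heart libraries lay above the MLN and overlapped the spleen. Mif, an inflammatory cytokine, had 257.0, 276.1 and 237.8 CPM on average. Tnfsf8, the ligand of CD30, had 214.6, 110.7 and 50.1 CPM, and its heart libraries lay below the spleen (adjusted p = 0.225, edgeR). Il3, which lies 15636 bases from Csf2, had no count in any library. Il17f, the relative of Il17a 42650 bases from it and chosen after its values were seen, had 41.8, 5.27 and 0 CPM in heart libraries 1, 2 and 3. The heart library without Il17a thus also had no Il17f. This did not hold in the lymphoid organs. MLN library 2 had Il17a but no Il17f. MLN library 3 and spleen library 3 had 0.251 and 0.200 CPM of Il17f and no Il17a.

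Of 28 transcription factors of cytokine genes, all 28 were tested and none was called, with medians of -0.02 for heart against spleen and 0.92 for heart against MLN. Rora, a nuclear receptor of type 17 and tissue lymphocytes, stood at 117.5 ± 80.9 CPM in the spleen, 54.8 ± 33.0 CPM in the MLN and 708.7 ± 360.4 CPM in the heart. Its heart libraries lay above all others, with log2 differences of 2.59 from the spleen (SE 0.734, adjusted p = 0.135, edgeR) and 3.69 from the MLN (SE 0.770, adjusted p = 0.0589, edgeR). Stat4, which drives Ifng downstream of interleukin 12, had 522.9, 363.8 and 826.2 CPM on average in spleen, MLN and heart. Batf, an AP-1 factor, had 486.2, 516.0 and 389.7 CPM. Tbx21, the lineage factor of type 1 cells and chosen after its values were seen, had 4.99 and 18.8 CPM in heart libraries 1 and 2. It had no count in the library labelled heart Treg 3, which held the most Ifng. Its level was 108.2 CPM in spleen library 3, the spleen library with the least Ifng.

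Of 15 genes of cytokine mRNA decay and feedback, all 15 were tested and none was called, with medians of 0.07 for heart against spleen and 0.22 for heart against MLN. Nfkbia, the inhibitor that NF-kB induces, had 708.9 ± 162.7 CPM in the spleen, 592.9 ± 42.7 CPM in the MLN and 1202 ± 417.7 CPM in the heart (adjusted p = 0.377 and 0.182, edgeR). Its heart libraries lay above the MLN and overlapped the spleen. Tnfaip3, which ends NF-kB signalling, had 153.1, 86.1 and 162.1 CPM on average. Zfp36, which destabilizes Tnf mRNA, had 145.1, 49.8 and 135.0 CPM, and Pdcd4, an inhibitor of translation, had 156.7, 55.2 and 52.8 CPM.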

How the data were processed

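Raw counts of reads per gene, neither normalized nor pooled, were deposited by the authors for 9 libraries made with the SMARTer Ultra Low Input kit, per the labels' protocols, which amplifies cDNA by PCR. Per the submitters' processing notes, the tools were CASAVA 1.8.2, HISAT2 and HTSeq 0.6.0 with the build mm10. How strand was handled and which annotation was counted is not given in the sources used here, so overlapping and antisense genes are uncertain. All 9 columns were used and 0 were left out. Positions come from GENCODE vM21 of GRCm38.

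The test was edgeR 4.0.16 (R 4.3.3) on these counts: genes were kept by its filter (minimum count 10, minimum total 15), scaled by TMM, and fitted in 1 quasi-likelihood model of 9 libraries (6 residual degrees of freedom). Tests were two-sided, with Benjamini-Hochberg adjustment over 16609 genes and a threshold of 0.05. SE comes from the F statistic. CPM uses scaled totals. Folds against an organ with no count use a floor of 3 counts per library, which covers counting error only, since PCR copies are not independent molecules. Every pair of libraries of 1 organ differed beyond sampling noise. The scripts were tested on simulated data. Alternatives were DESeq2 1.42.0, limma-voom (limma 3.58.1), other scaling and filters, fewer organs, a replicate block and left-out libraries.

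The members, gene lists and tests were chosen with earlier results of these data known. Named genes are the members, the 4 most abundant tested genes of each list and its called genes, the 3 genes most like each member with at least 10 CPM in an organ, B2m, and called genes within 100 kb; others are said to be chosen after their values were seen, apart from marker genes and genes that overlap or adjoin a member. Some genes that this rule names are not reported here.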

Additional observations from a re-analysis of the deposited data

How the results depend on the processing

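Of 27 member values (9 members, 3 comparisons), each tried under up to 17 alternatives, 4 changed direction in at least 1 and 10 passed the threshold in at least 1; no heart against spleen value changed direction. An alternative that left both organs without a count, or dropped the member by a filter, gave no value. Against 131 genes called between heart and spleen, the count was 1862 with DESeq2, 1141 with limma-voom, 292 with those 2 organs alone, 223 with a filter of 1 CPM in 3 libraries, 3 without spleen 3, MLN 3 and heart 2 together, and 0 to 122 without 1 library (0 without spleen 1, spleen 2 or heart 3, 1 without spleen 3, 2 without heart 2, 10 without heart 1, 84 without MLN 1). Against 230 between heart and MLN, it was 2204, 1332, 548, 369, 4 and 0 to 249 in the same order (0 without MLN 1 or heart 3, 24 without heart 1, 36 without MLN 3, 39 without MLN 2, 59 without heart 2). Between MLN and spleen it was 782 with DESeq2 and 3 with limma-voom, against 0. With the replicate number as a block (replicate block) 0 genes were called in each comparison; the numbers are not stated to pair libraries, and deviations of same-numbered libraries correlated at -0.208 to 0.221. DESeq2 called 4, 4 and 2 members and limma-voom 3, 3 and 0. With 2 organs alone, Il6 and Csf2 were called between heart and spleen (2 members), and without 1 library 0 to 1. Il6 and Csf2 passed the filter only through their heart libraries. The cause of these shifts was not tested, except that fewer libraries enter some fits. Between MLN and spleen, Tnf (0.05) turned to -0.52 with limma-voom and ran from -0.53 to 0.57 without 1 library, Ifng (1.12) turned to -0.33 and ran from -2.17 to 1.98, and Il17a ran from -4.36 to 12.20. Il4 between heart and MLN ran from -1.06 to 6.61 without 1 library. Median log2 over all genes moved from 0.12 to 0.22 between heart and MLN under the scaling of DESeq2 (RLE), which turned no member's direction. Lst1 was not called with the replicate block (adjusted p = 0.170, edgeR). Few or no counts limit the results for Il13, for the organs without a count, and for the organs with 6 or 7 counts in all (Il6, Csf2 and Il17a in the spleen, Il5 in the MLN). The reason for these low counts was not tested.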
